A study of Mus musculus with 6 samples.

Results

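H/ACA box small nucleolar RNAs (snoRNAs) were taken as every gene name starting with Snora that had at least 10 counts summed over the 6 libraries, which gave 19 genes of 40 Snora names and of 55367 gene names in all. H/ACA snoRNAs are short non-coding RNAs that fold into a pair of hairpins, and each hairpin can hold a pocket that pairs with a target RNA and guides the conversion of a uridine to pseudouridine, mostly in ribosomal RNA. They work as particles with the proteins dyskerin (Dkc1), Nop10, Nhp2 and Gar1. In mammals most of them lie in introns of other genes, the host genes, and are released from the spliced intron and trimmed. The letters that give the class its name are box H between the hairpins and an ACA box 3 bases before the 3′ end.

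The cells were primary keratinocytes, the main epidermal cell type, from the skin of day 2 mouse pups of a mixed C57BL/6 and 129/Sv background. All cultures carried Ppp1r13l flox/flox;Cre+ERT, that is, loxP sites around exon 8 of both copies of Ppp1r13l, the gene of iASPP, and a tamoxifen-inducible Cre recombinase expressed from the ubiquitous ROSA26 locus. The cells of each of 3 batches were divided at plating, and 24 h later the medium was changed to medium with tamoxifen (iASPP KO, 3 cultures) or without it (iASPP WT, 3 cultures) for 4 days. The labels give 1 mM tamoxifen and the methods 1 μM. As iASPP-WT cultures had no tamoxifen, effects of the drug and of the deletion cannot be told apart here. RNA was isolated with the RNeasy Mini Kit and depleted of ribosomal RNA. The libraries were size-selected, and single reads of 42 bases were counted by gene name and strand. How much short RNA each preparation kept was not measured, so levels here are those in the libraries.

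Library totals ran from 20202517 to 25157117 counts, and 14916 features had enough counts to be tested. A level is given in CPM, counts brought to a common library size after edgeR's TMM scaling, and a difference as a log2 fold change, positive where iASPP KO was higher, with its standard error (SE). A count of 0 allows a true level of up to 3 counts, which equal 0.123 to 0.141 CPM in these libraries, a floor that covers counting error only. Ppp1r13l stood at 14.3, 17.7 and 5.91 CPM in iASPP KO (batch 1, batch 2, batch 3) and at 32.7, 45.1 and 21.02 CPM in iASPP WT. These counts are of the whole gene, not of exon 8 alone. The 6 keratinocyte markers, among them Krt5 and Krt14, summed to 22555 to 26425 CPM in iASPP KO and 23244 to 26865 CPM in iASPP WT, and none of them passed the test in either direction. The p-values weigh the difference between conditions against the spread of these cultures that remains after batch is taken out. That spread was estimated partly from other features. Fewer cells of a type and less RNA per cell cannot be told apart in such bulk libraries.

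The sequences of the 3 snoRNAs that passed the test show the class features, with the first match to the letters of box H (ANANNA, searched on the transcript strand between 40% and 70% of the length) and the terminal ACA in capitals. They are Snora23 at chr7:110046364-110046547 (forward strand), Snora21 at chr11:97781639-97781775 (reverse strand) and Snora43 at chr2:26637847-26637985 (reverse strand), all in GRCm38, with sequences from the GENCODE vM21 transcripts of the same build.
Snora23: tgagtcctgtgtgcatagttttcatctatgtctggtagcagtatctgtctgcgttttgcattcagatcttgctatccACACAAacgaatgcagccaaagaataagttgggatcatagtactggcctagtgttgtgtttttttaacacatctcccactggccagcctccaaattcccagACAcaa
Snora21: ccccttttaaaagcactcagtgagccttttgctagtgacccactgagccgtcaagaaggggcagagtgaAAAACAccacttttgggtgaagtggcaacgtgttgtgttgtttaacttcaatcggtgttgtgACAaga
Snora43: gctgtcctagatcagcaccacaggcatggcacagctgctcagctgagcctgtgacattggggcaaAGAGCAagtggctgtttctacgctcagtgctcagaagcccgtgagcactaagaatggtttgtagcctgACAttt

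A second pair is shown because its members are near copies and the row of Snora73b holds most of the counts of the class. Their levels are not compared, since same-strand exons of other genes leave free 5 of 164 windows of 42 bases in Snora73a. In Snora73b they leave free all 164. Snora73b at chr4:132352322-132352526 (reverse strand) and Snora73a at chr4:132352775-132352979 (reverse strand) are the mouse U17 RNAs, which act in the processing of the ribosomal RNA precursor, and both lie within the span of the non-coding host gene Snhg3.
Snora73a: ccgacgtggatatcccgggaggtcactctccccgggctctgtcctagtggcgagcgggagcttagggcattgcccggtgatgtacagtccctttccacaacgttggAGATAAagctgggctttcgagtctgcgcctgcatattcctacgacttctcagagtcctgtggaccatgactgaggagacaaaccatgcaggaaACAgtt
Snora73b: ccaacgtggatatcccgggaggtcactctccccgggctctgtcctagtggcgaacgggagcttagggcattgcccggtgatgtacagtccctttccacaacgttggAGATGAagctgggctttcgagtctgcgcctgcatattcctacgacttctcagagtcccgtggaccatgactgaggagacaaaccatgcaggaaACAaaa
Counted from 1 at the 5′ end, with the base of Snora73a first, they differ by G3A, G54A, A111G, T164C, G203A, T204A and T205A, which leaves 96.6% identity over 205 bases. Of the 164 possible reads of 42 bases on each, 35 are the same in both, and such reads cannot be placed on either gene.

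The members of highest level after Snora73b, Snora57 at chr19:8888538-8888685 (reverse strand) and Snora78 at chr17:24719676-24719803 (reverse strand), have the terminal ACA but no match to the letters of box H in the window searched.
Snora57: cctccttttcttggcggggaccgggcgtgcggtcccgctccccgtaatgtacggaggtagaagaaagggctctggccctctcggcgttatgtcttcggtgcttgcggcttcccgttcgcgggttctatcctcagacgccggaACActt
Snora78: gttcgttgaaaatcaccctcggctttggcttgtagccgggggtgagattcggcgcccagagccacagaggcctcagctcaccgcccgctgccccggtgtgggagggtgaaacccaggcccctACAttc
Among the 19 members, 17 had the ACA exactly 3 bases before the end, and 17 held the letters of box H. The exceptions for the ACA were Snora17, with 2 bases after it, and Snora47, with 4. Of 97 Snord transcripts, the C/D box class that guides ribose methylation, 0 had the ACA at that place and 46.4% held the letters of box H. Of 1346 other transcripts annotated as snoRNA, 17.6% had the ACA at that place.

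The first result is which Snora genes could be counted at all. The lowest total of a member was 17 counts (Snora36b) and the highest 727531 (Snora73b), while each of the other 21 Snora names had 0 counts in all 6 libraries. The members nearest the threshold of 10 counts were Snora36b, with 10 of its 17 counts from iASPP KO of batch 2, and Snora5c, with 25 counts. By the counting command in the file header, a read lying on exons of more than 1 gene name was assigned to none. Of the 21 names at 0, 19 had no read-length window (a stretch of 42 bases) free of same-strand exons of another gene name, and 18 of these were covered by such exons over all their bases (Snora15 over 77.9%). Of the 19 members, 14 had every window free, 4 had some and Snora5c had 0 of 95.

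**Figure D1:**
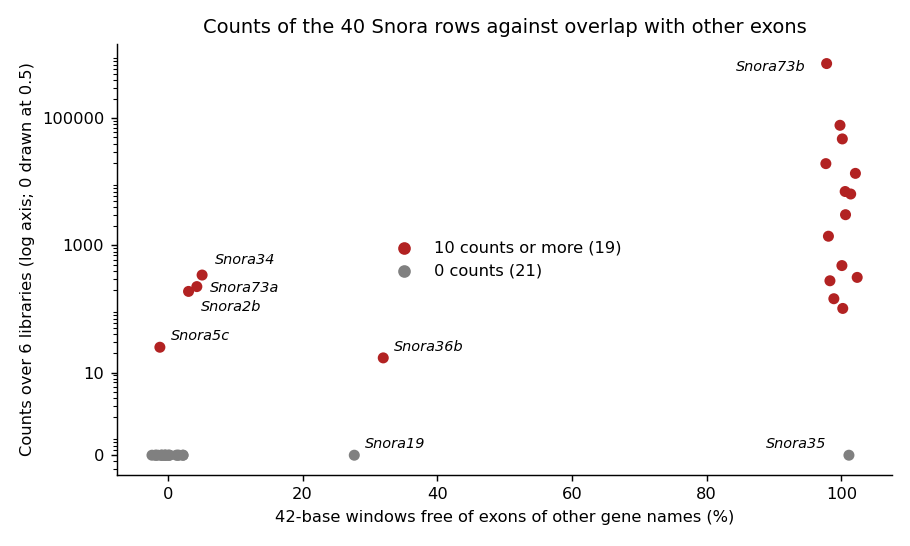
Counts summed over 6 libraries (log axis, with 0 drawn at 0.5) for the 40 Snora names against the percentage of their 42-base windows that no same-strand exon of another gene name touches, with a small sideways scatter of the points. The 21 names at 0 sit at the left, except Snora19 and Snora35, and 14 of the 19 members sit at 100%.

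Only 2 names at 0 had any window free. Snora19 had 23 of 91 windows free, and all 91 of its windows also occur in other transcripts (Gm23658 and Mir3084-1), so that its reads could not be placed. Snora35 had all 87 windows free and found in no other annotated transcript. It lies in an intron of Htr2c, the serotonin receptor 2C gene, which itself had 24 counts over the 6 libraries. For the other 19, and for Snora19, a count of 0 is no measure of the RNA.

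Partial overlap also touched 4 members with counts. Snora36b had 27 of 91 windows free, Snora73a 5 of 164, Snora34 5 of 97 and Snora2b 4 of 96. Their counts, like those of Snora5c, can hold only reads that touch no exon of the other gene. The windows lie wholly inside the snoRNA. Reads that reach past its ends, or that trimming left shorter, are not covered by them and were not told apart. A count therefore need not come from the trimmed snoRNA. In 11 of the 19 members no window occurs in an annotated transcript of another locus. The members with the most shared windows by number were Snora41 (37 of 91), Snora73a and Snora73b (35 of 164 each), Snora5c (33 of 95) and Snora30 (30 of 89), while Snora23 and Snora43 shared 0 and Snora21 shared 10 of 96.

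Levels of the members spanned a wide range. The members were ordered by CPM per kilobase of the annotated Length. This scale adjusts for Length only, not for windows lost to overlapping exons or copies, nor for RNA isolation or library size selection. Snora73b led at a mean of 25852 CPM per kilobase over the 6 cultures. Snora57 followed at 3845 and Snora78 at 2706 CPM per kilobase. Next came Snora23 at 767, Snora17 at 755, Snora21 at 378, Snora43 at 339 and Snora62 at 150 CPM per kilobase. In this order the range over cultures of Snora73b (from 15230 CPM per kilobase up) lay wholly above that of Snora57 (up to 5753), and the range of Snora78 (from 1824) wholly above that of Snora23 (up to 1495). Every other pair of neighbours in the order overlapped. Snora73b alone held 80.3% of the 905728 member counts, Snora57 8.58% and Snora78 5.24%.

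The comparison of iASPP KO with iASPP WT asks whether the level of these RNAs differs after iASPP deletion. Among the members, 17 passed the filter on low counts, and Snora36b and Snora5c did not. Of the 17, 3 rose in iASPP KO at an adjusted p below 0.05 (quasi-likelihood test of edgeR, Benjamini-Hochberg over all 14916 features) and 0 fell, against 2.17% higher and 1.95% lower of all features tested. At an unadjusted p below 0.05 the numbers were 9 higher and 0 lower, against 8.66% and 8.09% of all features. The members that rose were Snora23, Snora21 and Snora43.

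Snora23 lies in an intron of Ipo7, the gene of the nuclear import receptor importin 7. Its level in iASPP KO was 150 CPM (batch 1), 154 (batch 2) and 275 (batch 3). In iASPP WT it was 85.6, 93.5 and 89.3 CPM. Every iASPP-KO culture lay above every iASPP-WT culture, a pattern that 5.26% of all features tested showed, and Snora23 was the single member with it. The means were 193 ± 71.2 and 89.5 ± 3.94 CPM (SD, n = 3 each), which gave a log2 fold change of 1.05 (SE 0.17, adjusted p = 0.0095 by edgeR). The call was lost with libraries scaled to features under 200 bases, where the log2 fold change was 0.18 (adjusted p = 0.727 by edgeR), and without batch in the model (adjusted p = 0.973).

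Snora21 lies in an intron of Rpl23, the gene of a large-subunit ribosomal protein. It stood at 97.1, 32.6 and 84.7 CPM in iASPP KO (batches 1, 2 and 3) and at 39.9, 23.01 and 33.0 CPM in iASPP WT. Within each batch the iASPP-KO culture was the higher, but the groups overlapped, since iASPP KO of batch 2 lay below iASPP WT of batches 1 and 3. The means were 71.5 ± 34.2 and 32.0 ± 8.504 CPM (SD, n = 3 each), and the log2 fold change was 1.06 (SE 0.18, adjusted p = 0.011 by edgeR). This call too was lost under the scaling to features under 200 bases, at 0.18 (adjusted p = 0.734 by edgeR), and without batch in the model (adjusted p = 0.973).

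Snora43 and Snora17 lie close together on chromosome 2 and had no host by the rule used here, a longer gene on the same strand that contains the snoRNA. Snora43 stood at 64.2, 35.2 and 83.4 CPM in iASPP KO and at 33.8, 27.2 and 38.8 CPM in iASPP WT. It was higher in iASPP KO in each batch, and the groups overlapped through batch 2. The means were 61.0 ± 24.3 and 33.2 ± 5.84 CPM (SD, n = 3 each), with a fitted log2 fold change of 0.81 (SE 0.16, adjusted p = 0.023 by edgeR). With libraries scaled to features under 200 bases it stood at −0.07. Leaving out batch 1 ended its call, with an adjusted p of 0.087 by edgeR and a log2 fold change of 0.75, while Snora23 and Snora21 passed whichever batch was left out. Snora17 stood at 177, 63.9 and 147 CPM in iASPP KO and at 82.1, 65.0 and 63.0 CPM in iASPP WT, with a log2 fold change of 0.78 that missed the threshold (SE 0.21, adjusted p = 0.076 by edgeR). Batch 2 was again the batch with the smallest difference, at a log2 fold change of −0.025.

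**Figure D2:**
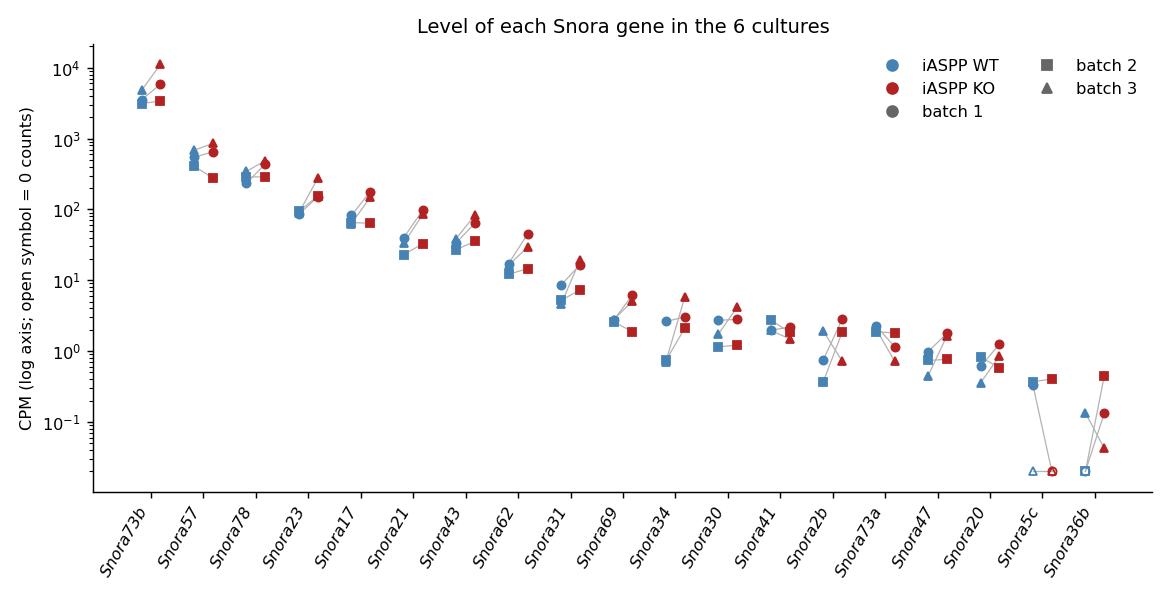
Level in CPM (log axis) of the 19 Snora members in the 3 iASPP-WT (blue) and 3 iASPP-KO (red) cultures, each batch with its own symbol and a grey line joining the cultures of a batch, ordered by mean CPM per kilobase. Snora23 is the single gene with all 3 iASPP-KO cultures above all 3 iASPP-WT cultures, and Snora73a the single gene with all 3 below.

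The most abundant members did not pass the test. Snora73b, at 5837, 3390 and 11151 CPM in iASPP KO and 3521, 3122 and 4776 CPM in iASPP WT, had a log2 fold change of 0.69 (SE 0.18, adjusted p = 0.058 by edgeR). The iASPP-KO culture was the higher in each batch, and iASPP KO of batch 2 lay below iASPP WT of batches 1 and 3. Snora57 stood at 648, 276 and 851 CPM in iASPP KO and 545, 410 and 684 CPM in iASPP WT. Its log2 fold change was −0.00013 (SE 0.16, adjusted p = 1.00 by edgeR), with differences of both signs among the batches (0.25, −0.57 and 0.32). Snora78, one of the shortest members, had 439, 288 and 487 CPM in iASPP KO and 233, 287 and 344 CPM in iASPP WT, a log2 fold change of 0.47 (SE 0.16, adjusted p = 0.149 by edgeR).

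Snora73a, the near copy of Snora73b, had the lowest value of the 17. It had 26, 40 and 17 counts in iASPP KO and 49, 46 and 47 in iASPP WT, or 1.16, 1.80 and 0.722 CPM and 2.30, 1.89 and 2.09 CPM. Every iASPP-KO culture lay below every iASPP-WT culture, as in 5.46% of all features tested. The log2 fold change of −0.85 did not pass (SE 0.65, adjusted p = 0.594 by edgeR). With 5 of 164 windows free, this value covers only reads that touch no exon of Snhg3.

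Snora62, known as E2 and hosted by the ribosomal protein gene Rpsa, stood at 44.8, 14.6 and 29.1 CPM in iASPP KO and 17.1, 12.1 and 16.4 CPM in iASPP WT. Its log2 fold change was 0.84 (SE 0.22, adjusted p = 0.065 by edgeR), and it was higher in iASPP KO in all 3 batches. Snora31, hosted by Tpt1, stood at 16.5, 7.27 and 19.1 CPM in iASPP KO and 8.57, 5.21 and 4.59 CPM in iASPP WT, and its log2 fold change of 1.16 also missed the threshold (SE 0.31, adjusted p = 0.070 by edgeR). The groups overlapped in both genes through batch 2.

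The largest log2 fold change of the 17, 1.54 for Snora34 (SE 0.63, adjusted p = 0.25 by edgeR), came from 68, 47 and 137 counts in iASPP KO and 56, 18 and 16 in iASPP WT, and it ran from 0.20 in batch 1 to 2.88 in batch 3. Snora2b, which lies with Snora34 in Kansl2, had 63, 41 and 17 counts in iASPP KO and 16, 9 and 43 in iASPP WT. Its log2 fold changes of 1.79, 2.08 and −1.31 in the single batches gave a fitted value of 0.99 with an SE of 0.95. Both rest on few free windows. The other tested members, Snora47, Snora20, Snora69, Snora30 and Snora41, had totals of 102 to 482 counts and log2 fold changes of 0.92, 0.59, 0.55, 0.47 and −0.28, with SEs from 0.45 to 0.94. The members that were not tested had 3, 10 and 1 counts in iASPP KO against 0, 0 and 3 in iASPP WT (Snora36b) and 0, 9 and 0 against 7, 9 and 0 (Snora5c).

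**Figure D3:**
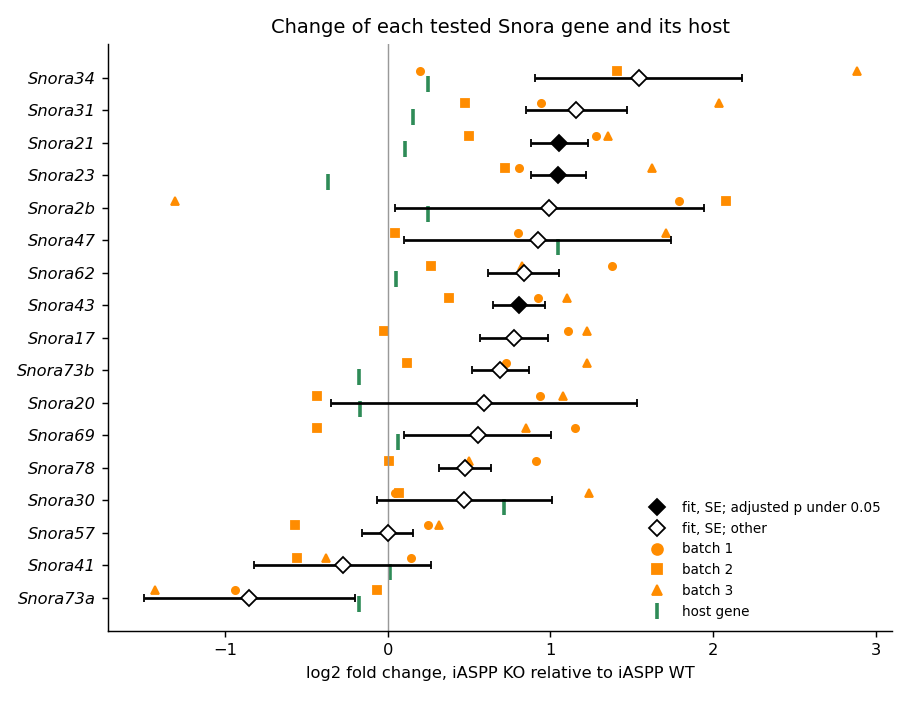
Fitted log2 fold change, iASPP KO over iASPP WT, of the 17 tested Snora members as a diamond with its SE, filled where the adjusted p was below 0.05, with the values of the single batches as orange symbols and that of the host gene as a green bar. The filled diamonds are Snora21, Snora23 and Snora43, the latter at −0.07 when libraries were scaled to features under 200 bases, and 14 of the 17 diamonds lie above 0 (6 of 17 under that scaling).

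As a group, the 17 tested members had a median log2 fold change of 0.78 against 0.0057 for all features tested, and of −0.10 against −0.86 when the libraries were scaled to the sum of counts on features under 200 bases. Of the 17, 14 had a positive log2 fold change, against 50.6% of all features, and 6 under that scaling. Higher in iASPP KO in all 3 batches were 10 of 17, against 19.5% of all features, and 1 of 17, Snora73a, was lower in all 3, against 19.7%. Over the 14 members with every window free the median was 0.73 over all batches.

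The batches differed. The 17 members had a median log2 fold change of 0.91 (batch 1), 0.07 (batch 2) and 1.10 (batch 3), while the medians of all features lay between −0.0054 and 0.0034. The CPM of the 19 members summed to 7495, 4275 and 13148 in iASPP KO (batches 1, 2 and 3) and to 4582, 4056 and 6061 in iASPP WT. These are ratios of 1.64, 1.05 and 2.17 within batches. Without Snora73b, which sets most of the sum, the ratios were 1.56, 0.947 and 1.55. Leaving out batch 1, 2 or 3 gave medians of 0.61, 1.03 and 0.46, and 2, 7 and 7 members that rose, where 1.09% and 0.978%, 1.14% and 0.768%, and 5.2% and 4.34% of all features were higher and lower. The count also depended on the test: 6 members rose with DESeq2 (3.91% and 3.31% of features higher and lower), 5 with edgeR's robust dispersion (2.57% and 2.41%), and 8 with no filter beyond 10 counts in all (3.09% and 2.51%). Without batch in the model, 0 members and 0.0% of features passed in either direction.

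The share of counts on short features moved with the members. Features under 200 bases took 1.73%, 0.723% and 1.51% of the counts in iASPP KO (batches 1, 2 and 3) and 0.728%, 0.576% and 0.859% in iASPP WT. The 17 members shorter than this limit are part of that share, while Snora73a and Snora73b, of 205 bases, are not. All 19 members together took 0.686%, 0.404% and 1.40% of the counts in iASPP KO and 0.458%, 0.393% and 0.674% in iASPP WT. Of the 225 other tested features under 200 bases, 48 (21.3%) rose and 0 fell, their median being 0.78 on the log2 scale. Snord genes and snoRNAs under other names are among these 225. Of the 14674 other features of 200 bases or more, 1.85% rose and 1.98% fell, with a median of 0.0010. The part of this share in the values of the Snora members was not tested. When libraries were scaled to the sum on short features, 0 members passed in either direction (0.0402% of all features higher and 12.9% lower), Snora23 and Snora21 stood at 0.18 each and Snora43 at −0.07, and the median of all features shifted by −0.86.

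Other classes of short RNA were set beside the members. Of all features tested, 2.17% rose and 1.95% fell. Of 40 tested Snord genes, 14 rose and 0 fell, at a median of 0.94 on the log2 scale. Another 40 tested genes, named otherwise but annotated as snoRNA and carrying both boxes by the search above, had 14 that rose, 0 that fell and a median of 1.02. Under the scaling to short features the medians were 0.06 for Snord genes, 0.13 for the other H/ACA genes and −0.11 for the other features under 200 bases. This last class held every tested feature under 200 bases without a Snora name. It therefore included 39 of the 40 Snord genes and 39 of the 40 other H/ACA genes. Within batches 1, 2 and 3 the medians were 1.51, 0.60 and 0.68 for Snord genes, 1.30, 0.26 and 1.35 for the other H/ACA genes and 1.13, 0.31 and 0.68 for the other features under 200 bases, beside 0.91, 0.07 and 1.10 for the Snora members. Differences between these classes were not tested, and the Snora members are not set apart from them here.

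**Figure D4:**
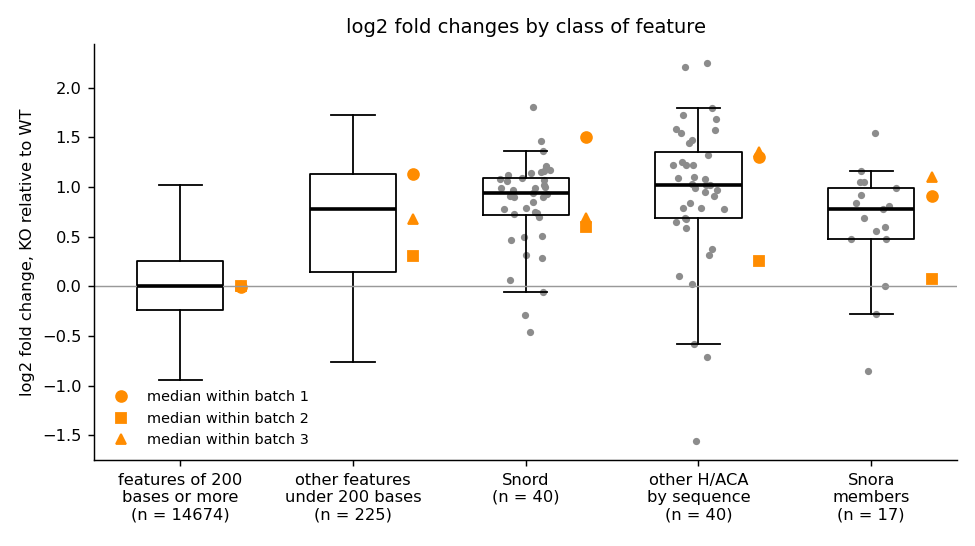
Fitted log2 fold change, iASPP KO over iASPP WT, by class of tested feature, with boxes from the 25th to the 75th percentile, a thick line at the median, whiskers from the 5th to the 95th percentile, grey points for single genes in classes under 50 genes and orange symbols for medians within a batch. The medians are 0.0010, 0.78, 0.94, 1.02 and 0.78 from left to right, and scaling to features under 200 bases moves the median of all features to −0.86 and that of the Snora members to −0.10. The class of other features under 200 bases includes most of the Snord and other H/ACA genes.

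The annotated Length ran from 128 bases (Snora20 and Snora78) to 205 (Snora73a and Snora73b), and only 3 members were longer than 149 bases. Across the 17 tested members Length and log2 fold change had a Spearman rho of 0.065, and −0.23, 0.20 and −0.06 within batches 1, 2 and 3. Without Snora73a and Snora73b rho was 0.31 over 15 members. The median log2 fold change was 0.55 for the 7 tested members of 128 to 132 bases, 0.92 for the 7 of 136 to 149 and 0.69 for the 3 of 184 to 205, and each class held values from below or near 0 to above 1. In the longest class these were Snora73a at −0.85 and Snora23 at 1.05.

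Length was also set against level. Over the 19 members the Spearman rho of Length with mean CPM was 0.29, and over the 14 with every window free it was 0.50, both for CPM and for CPM per kilobase. Members of nearly the same Length still differed widely, since Snora20 and Snora78, both of 128 bases, stood at 0.744 and 346 CPM. Level and precision went together, with a rho of −0.94 between mean CPM and the SE of the log2 fold change, while level and log2 fold change had a rho of 0.03. These correlations are across genes that share libraries and batches and are descriptions.

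**Figure D5:**
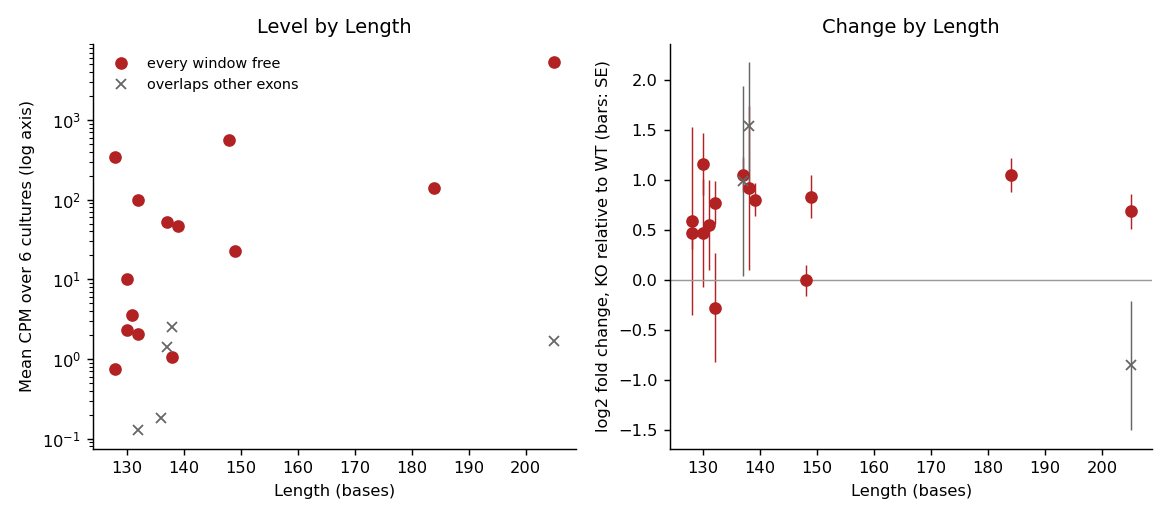
Length in bases against mean CPM over 6 cultures (left, log axis, 19 members) and against log2 fold change with its SE (right, 17 tested members), with red circles for members with every 42-base window free and grey crosses for those overlapping exons of other genes. Both genes of 205 bases, Snora73b at 5299.7 CPM and Snora73a at 1.66 CPM, sit at the right edge with fold changes of opposite sign (both negative under scaling to features under 200 bases). Their levels are not compared, since few windows of Snora73a are free.

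The host genes of the members did not pass the test. The 15 members inside a host lay in 13 genes (12 members in an intron and 3 in an exon). Of the 13 hosts 0 passed the test in either direction, where 2.17% of all features tested were higher and 1.95% lower. At these shares 0 calls among 13 genes does not set the hosts apart. The median log2 fold change of the hosts was 0.06, and their lowest adjusted p was 0.12 by edgeR. That lowest value was for Ipo7, the host of Snora23, at 265, 259 and 245 CPM in iASPP KO and 343, 375 and 280 CPM in iASPP WT. Its log2 fold change was −0.37 (SE 0.11), lower in iASPP KO in each batch, where Snora23 was higher in each. Rpl23, the host of Snora21, had 0.11 (SE 0.12), Snhg3, the host of Snora73b, −0.17 (SE 0.15), Rpsa 0.05, Tpt1 0.15 and Kansl2 0.25. In 9 of the 13 pairs of a tested member and its host the member's value was above the host's, and the Spearman rho between the values was 0.32 over these 13 pairs. The difference between member and host was not tested. Unlike the members, the hosts were not checked for reads lost to overlapping exons or copies. Their totals ran from 104 counts (Zbed3, SE 1.18) to 109070 (Eef1b2), with 1224 for Tpt1. Of the 19 hosts of the Snora names at 0, 18 were tested and 0 passed in either direction.

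Genes of the proteins that make, bind and trim H/ACA RNAs, with telomerase RNA and its partners, were looked at as a list of 17. Of these, 0 passed the test in either direction, against 2.17% higher and 1.95% lower of all features tested. The log2 fold change was positive in 5, against 50.6% of all features, and negative in 12, and the median was −0.16. Of the core proteins, dyskerin (Dkc1), the pseudouridine synthase, had 77.4, 82.0 and 75.4 CPM in iASPP KO and 79.3, 93.4 and 76.9 CPM in iASPP WT, a log2 fold change of −0.08 (SE 0.12). Nop10 had the lowest adjusted p of the list, at a log2 fold change of 0.41 (SE 0.14, adjusted p = 0.147 by edgeR), and Nhp2 and Gar1 had 0.15 and −0.16. The assembly factor Naf1 had 0.46 (SE 0.29), Shq1 −0.15, and the chaperone subunits Ruvbl1 and Ruvbl2 −0.23 and −0.20. Of the enzymes that act on the ends of such RNAs, the exosome nuclease Exosc10 had −0.50 (SE 0.18, adjusted p = 0.183 by edgeR) and the nuclease Dis3 −0.19. Tent4b, which adds adenosines to the 3′ end, had 0.12, the deadenylase Parn, which removes them, −0.25, and the cap methylase Tgs1 −0.10. Telomerase RNA (Terc), which ends in an H/ACA domain of its own, had −0.77 (SE 0.77) at 0.951 ± 0.797 CPM in iASPP KO and 1.38 ± 0.452 CPM in iASPP WT (SD, n = 3 each), and its partners Tert and Wrap53 had 0.15 and −0.40. Coil, the scaffold of the Cajal body, had −0.29.

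Markers of other cells the cultures could hold were measured beside these values. Fibroblast markers summed to 36.7 to 454 CPM in iASPP KO and 33.7 to 669 CPM in iASPP WT, highest in batch 3 of both. Of these, 2 of 6 fell, where 1.95% of all features tested fell and 2.17% rose. Melanocyte markers summed to 383 to 992 and 328 to 1048 CPM (0 of 4 passed) and endothelial markers to 2.34 to 11.99 and 2.16 to 5.17 CPM (0 of 2 tested passed). Leukocyte markers summed to 9.64 to 29.2 and 4.72 to 15.1 CPM, with 1 of 3 tested that rose and the T cell marker Cd3e at 0. Their part in the Snora values was not tested.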

How the data were processed

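Reads were trimmed by the authors with cutadapt, aligned to mm10 (GRCm38) with STAR and, per the file headers, counted on exons by gene name with featureCounts v2.0.0 (reverse-stranded, GENCODE vM25, no option for multi-mapped or multi-overlapping reads). The deposited values are raw counts per gene name, without normalization. A second deposited table holds the authors' own comparison (fold changes and p-values) and was not used.

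The test was edgeR's quasi-likelihood fit (version 4.0.16, R 4.3.3) of a model with terms for batch and condition, after filterByExpr and TMM scaling, and p-values were adjusted by Benjamini-Hochberg over 14916 features (threshold 0.05). Common dispersion was 0.0627, and degrees of freedom were 2 (residual) and 8.17 (prior). A within-batch value is the difference of the log2 CPM of both cultures, computed with a prior count of 2. Batch pairs the cultures, since the study's design divides each batch between the conditions. Same-batch cultures correlated at 0.580, 0.672 and 0.762 in their deviations from the condition means (10147 features with a mean above 5 CPM). Between iASPP-KO and iASPP-WT cultures of different batches the correlations ran from −0.652 to 0.304. The deviations cancel out within a condition, so these correlations depend on each other. A chi-square comparison of cultures of a condition gave 40.1 to 169 per feature, far above sampling noise for every pair within a condition. The fit was tested on simulated data.

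Windows were checked against the exons of the count table and against the GENCODE vM21 transcripts, to which all 40 Snora names matched, not against the genome sequence. The genes named are those past the threshold, the 8 highest per kilobase, the 5 with the largest and the 5 with the smallest log2 fold change, the longest and shortest, their hosts, a list of H/ACA pathway genes and Ppp1r13l. The members and lists were chosen with earlier results of these data known. Alternatives were no batch term, DESeq2 1.42.0, 4 other scalings, 2 other filters, a robust dispersion and each batch left out. Python 3.11.15 with pandas 2.3.3, scipy 1.17.1 and matplotlib 3.10.9 made the tables and plots.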

Additional observations from a re-analysis of the deposited data

How the results depend on the processing

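The number of Snora members that rose was 3. It was 0 without the replicate block, where 0 of all 14916 features passed (edgeR, and 6 members had an unadjusted p below 0.05), and 0 when libraries were scaled to features under 200 bases, where 6 of all features were higher and 1917 lower (0.0402% and 12.9%). It was 6 with DESeq2, where 480 of 12291 features were higher and 407 lower, 8 with no filter beyond 10 counts in all (684 and 556 of 22134), 5 with a robust dispersion and 2 to 7 when a batch was left out. Without batch 1 the features called were 169 higher and 151 lower, without batch 2 174 and 117, and without batch 3 793 and 662, against 323 and 291. The number of members that fell was 0 under each of these. Snora73b and Snora62, which missed the threshold in the main fit, passed in 5 of 12 alternatives each. Snora17 and Snora31 passed in 4, Snora78 in 3 and Snora57 in 0. Snora23 and Snora21 passed in 10 of 12 alternatives and lost the call without the block (adjusted p = 0.973 by edgeR for both) and under the scaling to short features, which is also where Snora43 turned to −0.0687 (adjusted p = 0.897 by edgeR) and the median to −0.104. Under that scaling 5 of 17 members moved the same way in all 3 batches, against 11 in the main fit. Of all 14916 features, 10420 did so under that scaling, against 5860. The mean log2 ratio of the summed CPM was −0.238 under it. The Spearman rho of Length with log2 fold change was 0.309 without the members of 205 bases, an alternative chosen after seeing the data. The scaling divides by a sum that holds 17 of the 19 members, and the cause of the other changes was not tested. Depth limits the members under 500 counts most, whose SEs were 0.45 or more.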

Other observations

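Other H/ACA genes by sequence included larger log2 fold changes than those of the 3 Snora members that rose. Gm22748 stood at 448, 181 and 87.7 CPM in iASPP KO (batches 1, 2 and 3) and at 145, 80.0 and 17.9 CPM in iASPP WT, a log2 fold change of 1.69 (SE 0.18, adjusted p = 0.0016 by edgeR). Gm26397 stood at 294, 129 and 266 CPM in iASPP KO and at 109, 74.8 and 78.7 CPM in iASPP WT, a log2 fold change of 1.33 (SE 0.17, adjusted p = 0.0030 by edgeR). Both were higher in iASPP KO in all 3 batches, and both were named after their values were seen. Their windows were not checked for copies elsewhere.

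Of the small Cajal body RNAs (Scarna genes), which guide modification of spliceosomal RNAs, 7 were tested. Of these, 1 rose and 0 fell, against 2.17% and 1.95% of all features, and the median log2 fold change was 0.18. The gene that rose, Scarna13, stood at 28.2, 25.9 and 39.3 CPM in iASPP KO and at 16.7, 12.2 and 17.8 CPM in iASPP WT, with no overlap between the groups (log2 fold change 0.99, SE 0.17, adjusted p = 0.012 by edgeR). The most abundant per kilobase, Scarna6, stood at 1003, 920 and 706 CPM in iASPP KO and at 763, 1076 and 550 CPM in iASPP WT, with a log2 fold change of 0.18 (SE 0.14) that did not pass. Of the 7 Scarna genes tested, 3, among them Scarna13, had every iASPP-KO culture above every iASPP-WT culture, against 5.26% of all features. Scarna genes differ in kind and Length (70 to 414 bases), and they were named after their values were seen.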
